A study of Mus musculus with 7 samples.

Results

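Sepp1 and Selm are 2 selenoprotein genes that stood higher in megakaryocyte progenitors of old mice than in those of young mice. They are known by the current symbols Selenop and Selenom. They were chosen by symbol from the authors' deposited table of old against young, and with that table's values known. The table holds Sepp1 on 1 gene model and Selm on 2, so the members are 3 of 769 gene models. The table lists gene models with an adjusted p of up to 0.0993 in this contrast. The group means, fold changes and errors of the 3 gene models are therefore given as a description and not as a test.

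The cells were sorted from bone marrow as negative for lineage markers and Sca1 and positive for cKit, CD150 and CD41, and the labels name them megakaryocyte progenitors, the precursors of the cells that shed platelets. Young mice were 3 months old (3 RNA-seq libraries). Old mice were 18 to 20 months old by one label and 20 months by another (4 libraries). Mice of both ages were offspring of Flt3-cre and mTmG crosses. With this reporter, cells turn from Tomato to GFP fluorescence after the recombinase has acted in them or in an ancestor. The strain is given as C57BL/6, and as C57BL/7 for 1 old library. Tom+ or GFP+ fractions were sorted. The young titles begin with mkpgy and the old titles with mkpgo or mkpto. No source used here gives the meaning of these prefixes, and age cannot be told apart from a difference in sorted fraction if they mark one. The values are means per group over bulk RNA, so no value per library can be shown, whether libraries of the groups overlap is unknown, and the depth is unknown. More cells of a type and more RNA per cell cannot be told apart in such samples. No label says that the libraries come from separate mice.

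Selenoproteins carry selenocysteine, an amino acid with selenium in place of the sulphur of cysteine. It is inserted at UGA, which is otherwise a stop codon, when a hairpin in the 3′ untranslated part of the mRNA recruits the insertion machinery. Sepp1 encodes selenoprotein P, a secreted plasma protein made mostly by the liver that carries selenium to other tissues and is taken up through the receptors Lrp8 and Lrp2. Selm encodes selenoprotein M, a protein of the endoplasmic reticulum (ER) lumen with a thioredoxin-like fold. Most selenoproteins are enzymes of redox chemistry, among them glutathione peroxidases and thioredoxin reductases.

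The selenocysteine codons show how the 2 genes differ. Sepp1 lies on chromosome 15 (3268547 to 3280508, plus strand, GRCm38, the assembly of mm10) with 7 annotated transcripts in GENCODE M21. Its transcript Selenop-203 has 5 exons and 380 codons before the stop codon, and 10 of them are annotated as selenocysteine. Selm lies on chromosome 11 (3514684 to 3517351, plus strand) with 3 annotated transcripts. Its coding transcript Selenom-201 has 5 exons and 145 codons, of which 1, codon 48, is annotated as selenocysteine. Of the 24 mouse genes with such an annotation, 22 have a single selenocysteine codon, and the 10 of Sepp1 are the largest number. The coding sequences below are spliced mRNA written as DNA, 5′ to 3′, with each in-frame selenocysteine TGA in capitals. The first is the stretch around the only such codon of Selm (codons 40 to 56), which spans 2 splice junctions. The second is the stretch around the first such codon of Sepp1 (codons 51 to 67, chr15:3274824-3274874). The third is the end of the Sepp1 coding sequence (codons 315 to 380, chr15:3279510-3279707), which holds 7 of its 10 selenocysteine codons.
Selm codon 48: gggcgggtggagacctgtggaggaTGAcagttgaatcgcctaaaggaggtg
Sepp1 codon 59: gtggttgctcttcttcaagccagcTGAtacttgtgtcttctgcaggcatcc
Sepp1 end of coding sequence: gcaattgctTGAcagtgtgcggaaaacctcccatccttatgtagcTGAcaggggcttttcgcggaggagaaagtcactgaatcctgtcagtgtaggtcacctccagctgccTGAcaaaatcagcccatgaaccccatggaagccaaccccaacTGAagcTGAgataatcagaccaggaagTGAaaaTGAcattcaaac
In both genes the coding sequence ends in another stop codon, TAA in Sepp1 and TAG in Selm.

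In the authors' deposited table Sepp1 was listed at a mean of 545 normalized counts in young and 1950 in old. That is 3.58 times the young mean. The authors' deposited table gives a log2 fold change (old over young) of 1.84 with a standard error (SE) of 0.20, which gives a 95% interval from 1.45 to 2.23, or from 2.74-fold to 4.68-fold. In the authors' deposited table its DESeq adjusted p of 5.69e-17 is the second smallest, after that of the MHC class II invariant chain Cd74 (4.55e-21). The spermidine and spermine acetyltransferase gene Sat1 has the same adjusted p as Sepp1 in the authors' deposited table although its p is larger (1.45e-20 against 1.14e-20), because the Benjamini-Hochberg adjustment gives a row the smaller value of the row after it. Of all 11778 gene models in the authors' adjustment, 487 (4.13%) were called at an adjusted p under 0.05, 302 higher in old (2.56%) and 185 lower (1.57%). The 3 gene models of Sepp1 and Selm are among the 302, and nothing is read from that count, since the same contrast chose them.

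Sepp1 had one of the smaller errors of the higher calls, and a change below their median (1.84 against 2.37 on the log2 scale). Of the 302 higher calls, 199 had a larger log2 fold change than Sepp1 and 27 a larger old mean, but 8 had a smaller SE. Where old was higher by a log2 unit or more in the authors' deposited table (270 calls), only Sat1 had a smaller SE (0.18). The median SE was 0.62 over all higher calls and 0.67 over these 270. These ranks describe the table and are no test.

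**Figure D1:**
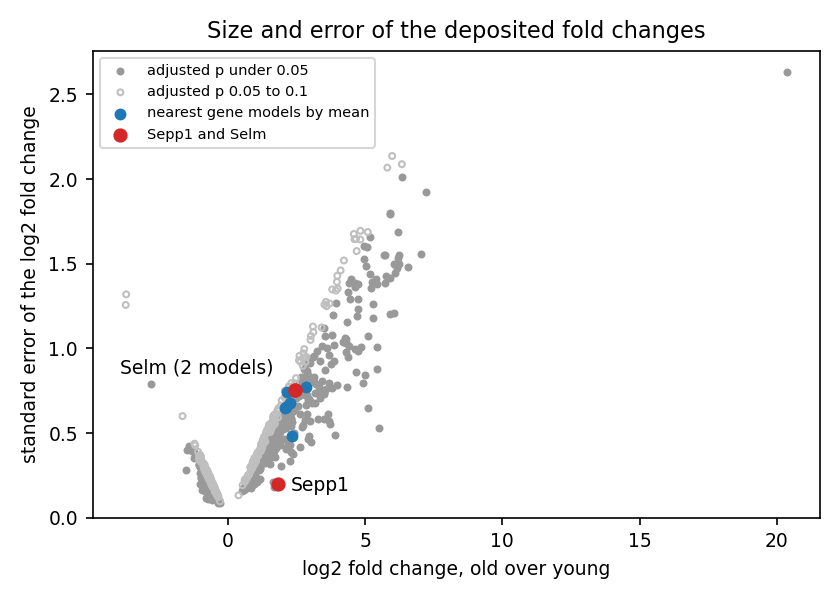
Each point is a gene model of the authors' deposited table, with the log2 fold change (old over young) on the x axis and its SE on the y axis. Sepp1 (1.84, SE 0.20) sits at the lower edge of the higher gene models, and the 2 Selm models (2.45 and 2.44, SE 0.76 each) coincide in the middle of the cloud. Filled grey points passed an adjusted p of 0.05, open ones did not, and blue points are the gene models nearest to Sepp1 or Selm by their 2 group means.

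Selm was listed lower than Sepp1 in both groups and with a wider error. Its first gene model had a mean of 119 normalized counts in young and 648 in old in the authors' deposited table, 5.44 times the young mean. The log2 fold change was 2.45 (SE 0.76) in the authors' deposited table, with a 95% interval from 0.97 to 3.93, or from 1.95-fold to 15.2-fold. Its second gene model had means of 122 in young and 659 in old in the authors' deposited table, 5.40 times the young mean. The log2 fold change of the second model was 2.44 (SE 0.76, 95% interval 0.95 to 3.92). The DESeq adjusted p-values were 0.0372 and 0.0390 in the authors' deposited table, places 383 and 385 among its 769 gene models. Of the 302 higher calls, 194 had a smaller SE than the first Selm model and 144 had a larger log2 fold change.

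**Figure D2:**
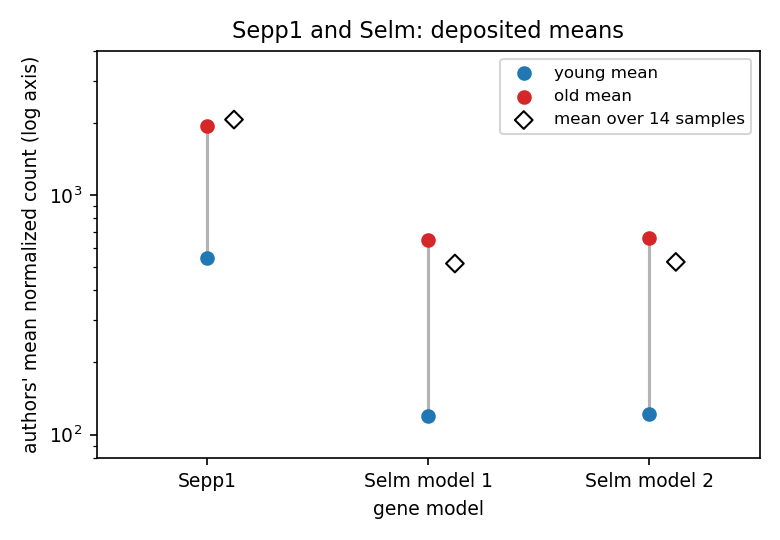
The authors' mean normalized counts in young (blue) and old (red) on a log axis for the 3 gene models, with the mean over 14 samples, some from outside these 7 libraries, as open diamonds. The line for Sepp1 runs from 545 to 1950, and those for the 2 Selm models run from 119 to 648 and from 122 to 659. The means carry no error bars because no value per library was used.

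The 2 Selm gene models gave the same direction and nearly the same size. The second model was 2.38% above the first in young, 1.68% above it in old and 1.54% above it in the mean over 14 samples. Their log2 fold changes differed by 0.0098, which is 1.30% of the smaller SE. With their means summed, Selm went from 241 in young to 1307 in old, a log2 ratio of 2.44. The identifiers in the authors' deposited table, kgCluster3430 and kgCluster3431, do not say which transcripts each model covers. Whether both counted the same reads was not tested, so the 2 models are not 2 independent measurements of Selm.

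Of the 5 symbols that stand on 2 gene models in the authors' deposited table, Selm had the most similar pair. The other 4 were Pik3ip1, Hnrnpll, AI506816 and Uba7. Pik3ip1, an inhibitor of phosphoinositide 3-kinase, came next, with log2 fold changes of 2.16 and 2.12 in the authors' deposited table and a young mean 1.64 times as high in one model as in the other. The largest gap was that of Uba7, an activating enzyme of the ubiquitin-like ISG15, at 2.03 and 1.69. All 5 pairs had the same direction in both models. A pair is seen only where both models are listed, so pairs with a model above an adjusted p of 0.0993 are absent. Models that share reads would also go together. The shared direction is therefore no test of the models. For the 4 symbols other than Selm, the higher model exceeded the lower by at least 1.64 times in young and at least 1.67 times in old.

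**Figure D3:**
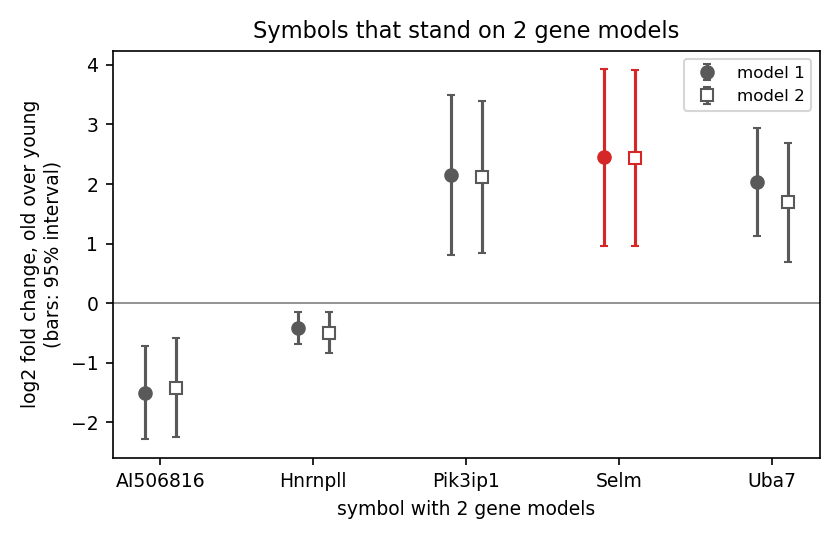
Log2 fold change (old over young) of both gene models for each of the 5 symbols with 2 models, as filled circles (first model) and open squares (second), with bars for the 95% interval from the SE. The Selm pair (red, 2.45 and 2.44) is level, the Uba7 pair (2.03 and 1.69) is the most uneven, and the bars of each pair overlap.

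Sepp1 and Selm could not be separated by the size of their change. The 95% interval of Sepp1 (1.45 to 2.23 on the log2 scale) lies inside that of the first Selm model (0.97 to 3.93). The difference was not tested, because both estimates come from the same libraries and the authors' deposited table gives no covariance. On a level per length, the young mean of Sepp1 was 261 normalized counts per kilobase of Selenop-203 (2085 bases) and that of Selm, averaged over its 2 models, was 170 per kilobase of Selenom-201 (707 bases). In old the levels per kilobase were 935 and 924. Averaging takes the 2 Selm models as counts of the same reads, which was not tested. If they counted separate reads, their summed means of 241 in young and 1307 in old would apply. Selm would then stand above Sepp1 per kilobase in both groups, so the order of the 2 genes is not settled. The lengths are those of the GENCODE transcripts, not of the authors' gene models, and these levels have no error.

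The gene models nearest to each member were found by distance over the log2 young and log2 old means, which is a likeness over 2 group means. Nearest to Sepp1 among 756 gene models were Txnip, which binds and inhibits thioredoxin (distance 0.23), the platelet adhesion receptor Selp (0.31) and the NF-kB inhibitor Nfkbia (0.35). Txnip had means of 547 in young and 2292 in old in the authors' deposited table, close to Sepp1 in both. Its SE of 0.65 was 3.27 times that of Sepp1, and the SEs of Selp (0.68) and Nfkbia (0.48) were 3.43 and 2.44 times that of Sepp1. All 3 gene models closest to Sepp1 in level thus had larger errors. Nearest to the first Selm model were Mmrn1, which encodes the platelet protein multimerin (0.23), the transglutaminase Tgm2 (0.29) and 1 model of Pik3ip1 (0.31). The same 3 symbols were nearest to the second model, with Mmrn1 again first (0.21). The SEs of these 3 were 0.75, 0.77 and 0.65 in the authors' deposited table, near the 0.76 of Selm.

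Of the other selenoprotein genes, 1 stands in the table, and it was listed lower. Sephs2 makes selenophosphate, the selenium donor for selenocysteine, and is itself a selenoprotein. It had means of 1867 in young and 1219 in old in the authors' deposited table, with a log2 fold change of -0.61 (SE 0.20), and did not pass (DESeq adjusted p = 0.0551). The other 21 of the 24 selenoprotein genes are not listed and have no value here. They include all glutathione peroxidase, thioredoxin reductase and deiodinase genes of the list. With Sepp1 and Selm, 2 of 24 genes were called (8.33%), against 4.13% of all gene models in either direction and 2.56% called higher. Both were chosen from this contrast. List shares here and below are over all genes of a list, while the background is over gene models in the authors' adjustment. Whether each unlisted gene entered that adjustment is unknown. Sephs2, which also serves selenocysteine synthesis, was counted with the selenoproteins. None of 14 other genes for selenocysteine synthesis and insertion and neither of the 2 receptor genes, Lrp8 and Lrp2, is listed. How many pass an unadjusted p is unknown, since gene models above the table's limit have no value here.

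Redox and ER genes without selenocysteine were listed in both directions. Of 31 thioredoxin, glutathione and antioxidant genes, 3 were called, 1 higher and 2 lower (9.68% of the list, against 4.13% of all gene models). Txnip rose by a log2 fold change of 2.07 (SE 0.65, DESeq adjusted p = 0.0400) in the authors' deposited table. Prdx3, a mitochondrial peroxiredoxin, fell by 0.65 on the log2 scale (SE 0.18), from 1467 in young to 937 in old in the authors' deposited table. The glutaredoxin Glrx3 fell by 0.73, with an SE of 0.21 and means of 8968 in young and 5415 in old in the authors' deposited table. Of 32 genes for ER folding and the unfolded protein response, 1 was called (3.13%). That gene, the ER chaperone Hsp90b1, fell by 0.59 on the log2 scale (SE 0.18, DESeq adjusted p = 0.0361) in the authors' deposited table. Creld2 (-0.80, SE 0.26) and Dnajb11 (-0.76, SE 0.26), both of the ER, and the asparagine synthetase gene Asns (-1.02, SE 0.35) were listed without passing in the authors' deposited table. All 4 listed genes of this list were thus below 0 while Selm, whose product resides in the ER, was above 0. Of the 278 listed gene models with a young mean of at least 1000, however, 265 were lower in old. The median log2 fold change of the 278 was -0.67. The 4 listed genes of the ER list, Prdx3, Glrx3 and Sephs2 belong to that group, while Selm (119 and 122 in young) does not. Whether the direction of these genes follows their level or the scaling was not tested. A median over all genes of these lists cannot be given, because unlisted genes have no value.

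**Figure D4:**
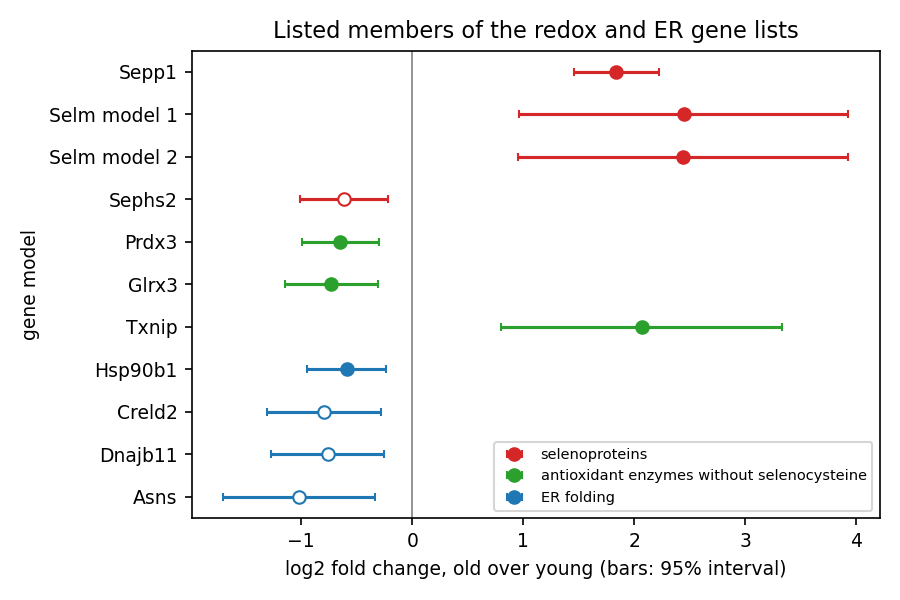
Log2 fold change (old over young) with bars for the 95% interval from the SE for every listed gene model of the selenoprotein list (red), the antioxidant list (green) and the ER list (blue), filled where the adjusted p was under 0.05. Sepp1, Selm and Txnip lie right of 0, while Sephs2, Prdx3, Glrx3 and the 4 genes of the ER list lie between -0.59 and -1.02.

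Some markers of other cells were also called higher in old, and markers that are not listed have no value here. Of 24 macrophage markers, 7 were listed, all with a higher old mean, and 3 were called (12.5%, against 2.56% of all gene models called higher). The summed mean of the 7 was 532 normalized counts in young and 4570 in old in the authors' deposited table. C1qb and C1qc make up 444 and 3674 of these sums, while the 3 called markers sum to 78.6 and 783. The lysosomal glycoprotein Cd68 (3.64, SE 0.62), the growth factor receptor Csf1r (3.37, SE 0.71) and the receptor kinase Axl (2.74, SE 0.83) were called in the authors' deposited table. The complement genes C1qb (3.02, SE 1.07) and C1qc (3.11, SE 1.10) were listed without passing in the authors' deposited table. Of 24 neutrophil and monocyte markers, 17 were listed and 15 called, all higher (62.5%, against 2.56% of all gene models called higher). The summed mean of the 17 listed was 5637 in young and 105485 in old in the authors' deposited table. Those with the smallest adjusted p were Csf3r (3.28, SE 0.58), Retnlg (7.05, SE 1.56) and Ltf (6.17, SE 1.47) in the authors' deposited table. The errors of the listed macrophage markers had a median of 1.07 and that of the neutrophil and monocyte markers 1.47, against 0.20 for Sepp1 and 0.76 for Selm. The SEs of Cd68, Csf1r and Axl lie on both sides of that of Selm. Prtn3 (0.46), Lyz2 (0.53) and Csf3r (0.58) had smaller SEs than Selm, and the other listed neutrophil and monocyte markers larger ones. Most listed macrophage markers had lower young means than Selm, so these errors are not compared at like levels.

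Each of the other marker lists had 1 or 2 calls, all higher in old. They are to be read against 2.56% of all gene models called higher (4.13% in either direction). Of 13 erythroid markers, 2 were called (15.4%), and both were adult globins, Hbb-bs at 2.82 (SE 0.82) and Hbb-bt at 2.45 (SE 0.75) in the authors' deposited table, near-identical copies that may share reads. Of 15 stroma and endothelium markers, Lpl (3.96, SE 0.79) and Bgn (2.93, SE 0.85) were called (13.3%) in the authors' deposited table. Sepp1 encodes a plasma protein, and of 12 other plasma proteins of the liver, haptoglobin (Hp) was called (5.04, SE 1.49; 8.33% of these genes) and transferrin (Trf) was listed without passing (2.03, SE 0.66, DESeq adjusted p = 0.0510) in the authors' deposited table. Albumin (Alb) is not listed. Of 24 megakaryocyte markers only Selp is listed, and it was called (2.25, SE 0.68; 4.17% of these markers) in the authors' deposited table, so the labelled cell type could not be checked from the others. The part of other cells in the levels of Sepp1 and Selm was not tested.

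The surroundings of the genes bear on how their reads were counted. The 3′ end of Sepp1 overlaps Ccdc152 on the opposite strand, and their annotated exons share 439 bases. Ccdc152 is not listed, and no source used here gives the strand setting of the counting, so reads from that overlap cannot be assigned to either gene. No annotated protein-coding gene overlaps Selm. Its nearest neighbours are Smtn, whose 3′ end lies beyond a gap of 171 bases to the right, on the opposite strand, and Inpp5j, 9862 bases to the left. Neither is listed. Within 1 Mb of Selm the table lists Pik3ip1, 171.7 kb away, and Tcn2, a vitamin B12 carrier gene (1.72, SE 0.61, DESeq adjusted p = 0.0811), 399.8 kb away in the authors' deposited table. No listed gene with a known position lies within 1 Mb of Sepp1. A listed neighbour within that distance is common: 502 of 745 listed symbols with a position (67.4%) have one.

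The promoters are shown because both genes were listed higher in old. RefSeq (GRCm38.p6) gives 1 promoter window for Selm and 3 overlapping ones for Sepp1, each of 300 bases, from 250 before to 50 after an annotated start. The windows below are that of Selm (chr11:3514434-3514733, plus strand) and the one of Sepp1 that lies farthest to the right (chr15:3270727-3271026, plus strand). Capitals mark matches to 5 short motifs, searched on both strands.
Selm promoter: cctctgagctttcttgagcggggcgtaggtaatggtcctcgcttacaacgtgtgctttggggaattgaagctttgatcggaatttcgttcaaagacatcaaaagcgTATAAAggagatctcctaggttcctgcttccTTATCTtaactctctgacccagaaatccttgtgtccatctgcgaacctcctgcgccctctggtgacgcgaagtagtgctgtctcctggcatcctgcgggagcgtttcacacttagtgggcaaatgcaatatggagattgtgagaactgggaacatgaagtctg
Sepp1 promoter: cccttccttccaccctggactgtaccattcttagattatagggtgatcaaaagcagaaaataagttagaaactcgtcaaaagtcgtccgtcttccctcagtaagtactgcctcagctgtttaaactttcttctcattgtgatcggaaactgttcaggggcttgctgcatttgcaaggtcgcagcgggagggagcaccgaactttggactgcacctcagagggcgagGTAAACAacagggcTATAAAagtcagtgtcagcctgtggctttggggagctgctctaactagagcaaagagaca
The TATA box core TATAAA was found once in each, beginning 144 bases before the Selm start and 10 bases before this Sepp1 start, and 13.6% of all 32851 windows hold it. The motif GTAAACA, bound by FoxO factors, was found once in the Sepp1 window, 24 bases before the start, and in 3.65% of all windows. The GATA motif AGATAA was found once in the Selm window, on the minus strand, and in 11.2% of all windows. The antioxidant response element core TGACNNNGC (12.4% of all windows) and the STAT motif TTCNNNGAA (8.30%) were found in none of the 4 windows. The other 2 windows of Sepp1 held none of the 5 motifs. All 3 Sepp1 windows begin at position 3270517 or to its right, while the GENCODE gene begins at 3268547. The sequence at that leftmost start was not searched. Because the motifs were chosen after the sequences were seen, the shares over all windows do not measure how unusual a match is. The marked matches do not overlap each other. They describe letters and not binding, and no data on binding or chromatin were analysed here.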

How the data were processed

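Per the labels' protocols, sorted cells gave total RNA by Trizol, which went into NEBNext Ultra libraries. The submitters' processing notes name Bowtie2, STAR, DESeq and mm10 without versions or roles. No source used here gives the counting method, strand setting or annotation. A single table was deposited. Per the file headers, it holds mean normalized counts per group and over 14 samples (a signal scaled by the authors), log2 fold changes (old over young) and their SEs, both on the log2 scale, a Wald score, and the p-value and adjusted p-value. The old column's name matches no single title and was read as both kinds of old title. The 14 samples exceed the 7 of this study, so samples of other origin may enter the authors' estimate of spread.

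Libraries were grouped by the age label. No model was fitted: the table has no values per library, so the planned count models could not be run. The number of gene models in the authors' adjustment (11778) was recovered from p and adjusted p, a step tested on simulated data. Calls are the authors' adjusted p under 0.05. Intervals of 95% come from the authors' SE and a normal distribution. Depth is unknown.

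The members and lists were chosen with earlier results of these data known, and the promoter motifs after the sequences were seen. Named were the members, every listed gene of the selenoprotein, redox and ER lists, the 3 listed markers per cell type with the smallest adjusted p, listed neighbours, and the 3 gene models nearest by group means. C1qb, C1qc, Prtn3, Lyz2, Sat1, Cd74, Tcn2 and the symbols with 2 gene models were named after their values were seen. Alternatives were other adjusted p limits, Bonferroni adjustment, pseudocounts, recentring, and limits on mean or fold change. Python 3.11.15, pandas 2.3.3, NumPy 2.4.6 and SciPy 1.17.1 were used. Positions are from GENCODE M21 and promoters from RefSeq, both on GRCm38.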

Additional observations from a re-analysis of the deposited data

Results flagged for a closer look

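The authors' deposited table has a mean over 14 samples that no comparison used, and it was above the young mean for all 3 gene models. For Sepp1 it was 2064 normalized counts in the authors' deposited table, against 545 in young and 1950 in old. It thus exceeds both group means. If both groups are among the 14 samples, which the table does not show, the remaining samples have a mean above 2064. A mean over 14 samples above both groups is common: 314 of the 769 gene models (40.8%) have one. For Selm it was 518 and 526 in the 2 models of the authors' deposited table, between the young means of 119 and 122 and the old means of 648 and 659. No source used here says what the samples outside this study are.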

How the results depend on the processing

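Each of the 3 gene models was recomputed under 7 alternatives. Other limits and pseudocounts cannot turn the sign of a fold change, so they bear on its call and size alone. Sepp1 passed at every limit tried. Both Selm models (2.45 and 2.44) missed an adjusted p limit of 0.01 and a Bonferroni adjustment of the authors' DESeq p-values. From the group means alone, with a pseudocount of 0, 1 or 10, the log2 ratio ran from 1.82 to 1.84 for Sepp1 and from 2.34 to 2.44 for Selm. Recentring by the median of the 278 listed gene models with a young mean of at least 1000 (-0.67) moved Sepp1 to 2.51 and the Selm models to 3.12 and 3.11. That shift rests on selected gene models, 265 of them lower, so it shows the reach of scaling and not which scaling is right. The difference of the 2 Selm models was -0.0098 by either estimate, the second added after the data were seen. Summed to 1 value, they leave no difference to compute. At a limit of 0.01, 180 of 11778 gene models were called in place of 487. They held 1 selenoprotein model (Sepp1) and 0 genes of the antioxidant and ER lists. At 0.1 there were 769, with 4 of the 32 genes of the ER list. With changes under 1 log2 unit left out there were 286. They held 1 of the 31 genes of the antioxidant list, the thioredoxin inhibitor Txnip, and 0 genes of the ER list. Leaving out single libraries, other normalizations and filters on counts were not run, since they need values per library. No paired analysis was possible because the table holds group means without replicate numbers.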
